A study of Mus musculus with 6 samples.

Results

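CpG islands (CGIs) at gene starts with little methylation were examined in CD8+ T cells by reduced representation bisulfite sequencing (RRBS). The CGIs were selected on 3 criteria: a distance of at most 200 bp to the start of an autosomal protein-coding gene, 5 or more CpGs that each had 5 or more reads in every library, and a methylation level under 10% when the reads of all libraries were pooled. Of 16095 CGIs called on the mouse sequence, 11126 were at such a start, 9589 of these had enough CpGs, and 9077 were under 10%. They held 247715 measured CpGs and lay at the starts of 9679 genes. The level of 10% was part of the selection, so that the low values are given as a description with no test, and only differences between genotypes were tested.

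A CGI is a stretch of DNA that has kept a high density of the dinucleotide CG, and many CGIs lie at promoters. Outside CGIs, most CpGs of a mammalian genome are methylated by DNA methyltransferases, whereas CGIs at active or poised promoters stay free of methylation and are bound by CXXC-domain proteins such as KDM2B and CXXC1. Between the unmethylated CGI and the methylated genome lies a transition zone, the CGI shore.

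The cells were enriched from the LNs of 13-week-old mice on a C57BL/6N background with a kit for CD8+ T cells, and 2 mice per genotype gave 1 library each. WT mice carried no transgene. hSTAT5B mice (hSTAT5B +/T) carried a transgene for nonmutated human STAT5B, and hSTAT5BN642H mice (hSTAT5B N642H +/T) one for human STAT5B with the mutation N642H and were diseased. Both transgenes were driven by the Vav1 promoter, which is active throughout the hematopoietic system, and each was represented by 1 selected mouse line, so that line and transgene cannot be told apart.

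The libraries listed between 2597893 and 3445555 CpGs, with 43291086 to 67007186 reads on them and a median of 5 to 11 reads per CpG. The median CpG of the selected CGIs had 14 and 20 reads in the WT libraries, 17 and 15 in the hSTAT5B libraries, and 28 and 19 in the hSTAT5BN642H libraries. The label CD8+ T cells was compared with CpGs within 10 kb of cell type genes, and these levels did not order the genes by cell type. Near T cell genes the libraries had 85.6% to 92.5% at Cd3e, 76.4% to 82.8% at Cd3d, 22.9% to 27.8% at Cd3g, and 28.2% to 30.3% at Lck. Near other genes they had 8.39% to 11.1% at Cd79a, 37.0% to 50.1% at Cd79b, and 40.4% to 42.3% at Pax5, of B cells, 29.2% to 30.9% at Cd4, and 89.9% to 91.7% at Itgam, of myeloid cells. Both genes of the CD8 coreceptor varied more between libraries. Cd8a, with 14 CpGs, had 65.7% and 35.8% in WT, 35.4% and 42.6% in hSTAT5B, and 33.3% and 29.8% in hSTAT5BN642H. Cd8b1, with 8 CpGs, had 44.2% and 45.6%, 23.9% and 29.4%, and 13.9% and 14.3%. The WT libraries thus differed from each other at Cd8a, and the genotypes did not overlap at Cd8b1. DNA methylation near a gene is no measure of its expression. The part that differences in cell composition play in the values that follow was not tested. Molecular identifiers were not used, and read numbers can therefore overstate the number of molecules sampled.

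The sequences of 6 selected windows show what was measured. They are from the GRCm38 plus strand, 5′ to 3′, and overlap no annotated exon. Capitals mark the CpGs measured in all libraries, written as CCGG where the CpG lies in the recognition site of MspI, the enzyme that cuts the DNA for RRBS, and as CG elsewhere. Jak2, Klf2, Runx3, and Dnmt3a are shown as CGIs at the low level common to the group, Olig2 as a developmental gene with a higher level, and Wipf1 as a CGI whose end is methylated.
Jak2 (chr19:29251453-29251612): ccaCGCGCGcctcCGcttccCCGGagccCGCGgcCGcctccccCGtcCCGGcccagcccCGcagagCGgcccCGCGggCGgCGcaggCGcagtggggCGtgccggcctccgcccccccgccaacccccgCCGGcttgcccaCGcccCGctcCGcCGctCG
Klf2 (chr8:72318816-72318964): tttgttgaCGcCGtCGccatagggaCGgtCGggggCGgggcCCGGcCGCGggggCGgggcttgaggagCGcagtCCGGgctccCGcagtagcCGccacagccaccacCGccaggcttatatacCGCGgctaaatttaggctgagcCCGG
Runx3 (chr4:135152350-135152493): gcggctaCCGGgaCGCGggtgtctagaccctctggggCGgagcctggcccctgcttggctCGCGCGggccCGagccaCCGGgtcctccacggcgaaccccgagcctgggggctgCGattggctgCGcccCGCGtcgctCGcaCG
Dnmt3a (chr12:3807365-3807524): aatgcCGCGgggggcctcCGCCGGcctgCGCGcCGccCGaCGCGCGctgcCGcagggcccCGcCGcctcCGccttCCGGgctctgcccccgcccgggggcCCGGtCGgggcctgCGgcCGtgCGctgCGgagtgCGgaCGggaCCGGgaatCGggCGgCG
Olig2 (chr16:91225920-91226045): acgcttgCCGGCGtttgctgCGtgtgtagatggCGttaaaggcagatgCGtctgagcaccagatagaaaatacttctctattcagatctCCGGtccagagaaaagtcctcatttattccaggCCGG
Wipf1 (chr2:73528867-73528989): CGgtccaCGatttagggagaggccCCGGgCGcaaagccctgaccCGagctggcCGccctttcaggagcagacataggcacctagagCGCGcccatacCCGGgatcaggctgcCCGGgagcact

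The Jak2 window lies 216 bp upstream of the start of this cytokine receptor kinase gene and outside any protein-coding gene. Of its 24 CpGs, 13 had no methylated read in any library, and the highest was at 8.42%. The mean over the window was 0.641% and 1.64% in WT, 0.219% and 1.95% in hSTAT5B, and 1.50% and 0.119% in hSTAT5BN642H, so that the genotypes overlapped. The Klf2 window, 69 bp upstream of the start of this transcription factor gene of naive T cells, had no methylated read at 13 of 18 CpGs. In Runx3, which encodes a transcription factor of the CD8+ lineage, the window lies in an intron, 3 bp upstream of a further start, and 10 of 15 CpGs had no methylated read. The Dnmt3a window lies in an intron, 205 bp downstream of a start of this de novo DNA methyltransferase gene, and 6 of 28 CpGs had none. In these windows the CpGs in CCGG had mean levels of 5.65%, 4.02%, 8.42%, and 5.88%, respectively, whereas the other CpGs had 0.515%, 0.257%, 0.320%, and 0.821%. Olig2, a transcription factor gene of the nervous system, had a methylated read at each of the 7 CpGs of its intronic window, with 13.6% in CCGG and 7.22% elsewhere. The Wipf1 window lies in an intron at the end of the CGI, 745 bp downstream of the start of this gene for a partner of the actin regulator WASP. Its 10 CpGs ranged from 10% to 71.4%, with 14.7% in CCGG and 36.2% elsewhere.

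The pooled level of the selected CGIs had a median of 1.97%. It was under 1% in 409 CGIs, between 1% and 2% in 4246, between 2% and 3% in 2462, between 3% and 5% in 1154, and between 5% and 10% in 806. CGIs had a median length of 692 bp, from just over the minimum of 200 bp to 5274 bp, and a median of 22 measured CpGs. In 6 CGIs no methylated read was found. Of these, Zpbp, a gene of sperm, had the most CpGs, with 0 of 601 reads methylated at 9 CpGs, which allows a level of up to 0.499% by counting error alone. Spr, which encodes sepiapterin reductase, had 0 of 758 reads at 7 CpGs (up to 0.396%), and Limd1, which encodes a LIM domain protein, had 0 of 387 reads at 6 CpGs (up to 0.775%). The 5 CGIs just inside the limit were those of Wipf1 (9.93%), Daam2 (9.94%), Zim1 (9.97%), Ajm1 (9.97%), and Stk32a (9.99%). Just outside it were Fgf4 (10.01%), Cntnap2 (10.01%), Kcng3 (10.01%), Kcnk4 (10.03%), and Dsc2 (10.03%).

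Single CpGs spread more widely than the CGIs. No methylated read was found in any library at 37.5% of the CpGs, 4.27% had a pooled level of at least 10%, and 287 CpGs in 236 CGIs had at least 50%. Of these 287, 275 were at 20% or more in all 6 libraries. They lay within 100 bp of a CGI end in 24.7% of cases, compared with 21.6% of all CpGs. Their measured neighbours had a median level of 5%, and 68.6% of the neighbours were under 10%. Most measured neighbours were thus low, but a smaller share of them was under 10% than of all CpGs, of which only 4.27% reached 10%. The limit of 10% on the pooled level of a CGI also restricts long methylated stretches.

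CpGs in the MspI site itself had higher levels than the other CpGs of these CGIs. The 48854 CpGs in CCGG, 19.7% of all, had mean levels of 5.90% to 6.24% per library, whereas the other CpGs had 1.49% to 1.69%. No methylated read in any library was found at 3.75% of CpGs in CCGG and at 45.7% of the others. Within the same CGI, CpGs in CCGG were 4.23 to 4.40 percentage points higher, and this direction was found in 8819 of 9045 CGIs with both kinds (97.5%). They held 50.9% of the methylated reads but 21.7% of all reads. Their median depth was 20 reads, against 18.5 for the others. Among the other CpGs, those 2 to 10 bp from a CCGG had 1.77% to 1.99% and those 21 to 30 bp from it had 1.32% to 1.56%, and those at 41 to 50 bp had 1.47% to 1.72%. In CGIs at any position with a level of 90% to 100%, the difference had the opposite sign, with 94.7% to 95.8% in CCGG and 96.4% to 97.1% elsewhere. CCGG sites mark the ends of RRBS fragments, and the cause of the difference was not tested. Values are therefore also given without these CpGs.

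**Figure D1:**
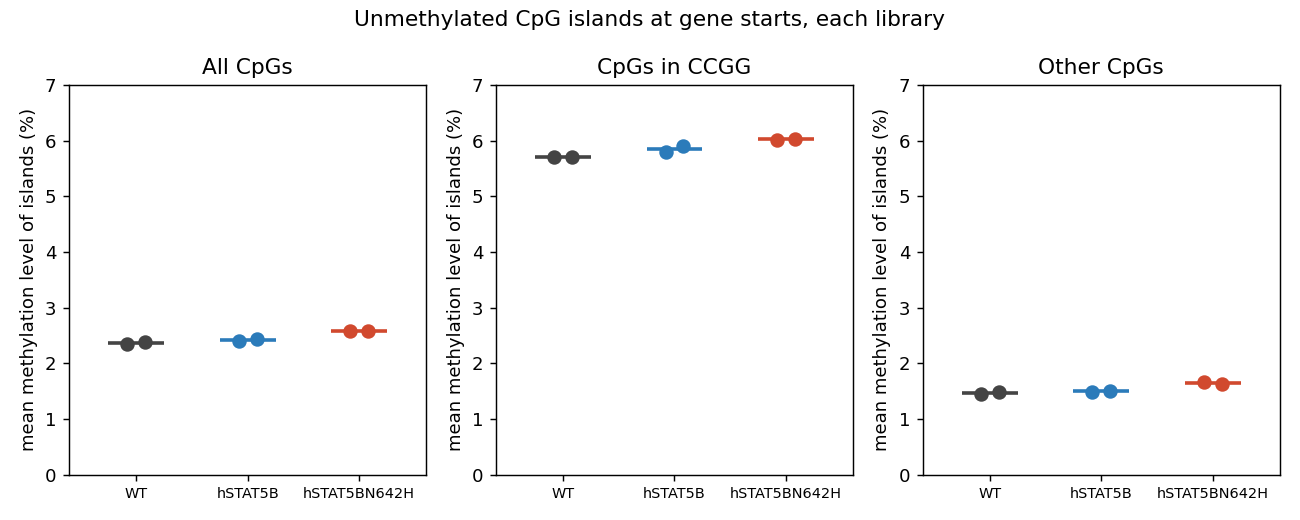
Mean methylation level of the selected CGIs in each of the 6 libraries (points) with the mean of each genotype (bars), for all CpGs, for CpGs in CCGG, and for the other CpGs. Levels in CCGG lie between 5.71% and 6.03%, those elsewhere between 1.45% and 1.66%, and both hSTAT5BN642H libraries lie above both WT libraries in each panel.

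To describe the level along a CGI, CpGs within 100 bp of the nearer end were called the edge, and those between 1/3 and 2/3 of the length and at least 100 bp from both ends were called the centre. With at least 2 CpGs in both, 5328 CGIs could be compared. The edge had mean levels of 2.86% and 2.94% in WT, 2.98% and 2.94% in hSTAT5B, and 3.18% and 3.15% in hSTAT5BN642H. The centre had 2.32% and 2.34%, 2.39% and 2.35%, and 2.49% and 2.50%, respectively. The edge was thus above the centre in each library, by 0.535 to 0.689 percentage points on average. In single CGIs the order was less clear, as 54.8% had the higher level at the edge. The edge was at least 5 percentage points above the centre in 289 CGIs, and the reverse was true in 88.

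CCGG sites were more common near the ends and made up 27.4% of CpGs at 1 to 25 bp from the end compared with 18.6% at over 400 bp. Without them, the other CpGs had 2.16% to 2.50% at 1 to 25 bp, 1.78% to 2.07% at 26 to 50 bp, 1.58% to 1.88% at 51 to 100 bp, 1.37% to 1.53% at over 100 and up to 200 bp, 1.33% to 1.51% at over 200 and up to 400 bp, and 1.59% to 1.82% further in. The level was thus highest next to the end and lowest at over 100 and up to 400 bp, where the ranges of both distance classes overlapped, and it was higher again further in, a distance that only CGIs of over 800 bp have. In 4730 CGIs without CCGG, the edge remained above the centre by 0.526 to 0.632 percentage points. Between CpGs in CCGG, compared in 1664 CGIs, the difference lay between -0.185 and 0.300 and had no common sign over the libraries.

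Outside the CGIs the level was higher at each further distance. It was 4.19% to 4.59% in the first 50 bp, 5.15% to 5.69% at 51 to 100 bp, 7.20% to 8.07% up to 200 bp, 17.6% to 18.7% up to 500 bp, 43.9% to 44.9% up to 1000 bp, and 69.8% to 70.6% up to 2000 bp. In 2344 CGIs measured in all 3 zones, the 200 bp outside had 5.80% to 6.42%, the edge 2.84% to 3.23%, and the centre 2.34% to 2.54%. The level in the first 50 bp outside was thus nearer to that of the edge than to that of the genome further out.

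**Figure D2:**
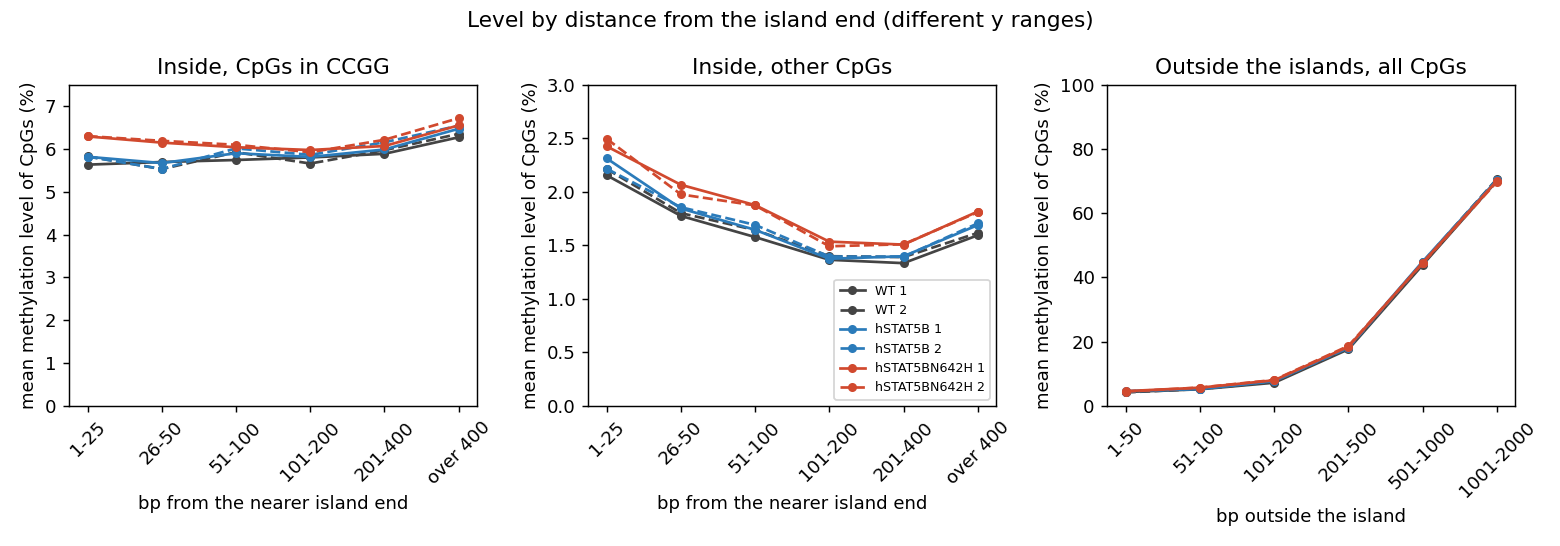
Mean methylation level of CpGs by distance from the CGI end, with 1 line per library (solid, replicate 1; dashed, replicate 2), inside the CGI in CCGG (left) and elsewhere (middle), and outside the CGI (right). Levels elsewhere are 2.16% to 2.50% at the end and 1.33% to 1.51% at 200 to 400 bp, those in CCGG stay between 5.53% and 6.72%, and the level outside reaches 69.8% to 70.6%. The y ranges differ.

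The upstream and downstream ends were not alike. In 1851 CGIs with a single direction of transcription and CpGs at both edges, the upstream edge had 2.46% to 2.86% and the downstream edge 3.23% to 3.67%, a difference of 0.684 to 0.812 percentage points. Without CCGG the difference was 0.618 to 0.852 in 1526 CGIs. By distance from the nearest start, the level was lowest in the 100 bp before it, with 2.11% to 2.30%, and in the first 100 bp after it, with 2.15% to 2.36%. CpGs at least 1000 bp downstream had 3.94% to 4.39%. Without CCGG, levels were 1.27% to 1.43% before the start and 3.12% to 3.49% at least 1000 bp downstream.

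The difference between edge and centre was larger in longer CGIs. It was 0.237 percentage points in CGIs of up to 400 bp, 0.412 up to 800 bp, 0.777 up to 1200 bp, and 1.22 above that, as the mean over all libraries. In the longest class, the outer 25 bp had 4.77% to 5.23%, compared with 2.64% to 3.05% in the shortest class. Without CCGG, edge minus centre lay between 0.0611 and 0.307 in the shortest class and between 1.12 and 1.35 in the longest, with no overlap between these classes in any library. The mean level of whole CGIs differed less with length, with 2.38% to 2.76% at up to 400 bp, 2.22% to 2.46% up to 800 bp, 2.28% to 2.51% up to 1200 bp, and 2.67% to 3.03% above that. Across the 9077 CGIs, Spearman's rho was 0.0888 between level and length and -0.174 between level and the observed/expected ratio of CpGs. These are descriptions across CGIs that share libraries and depth, and the second value rests on the density of the dinucleotide by which CGIs are called.

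**Figure D3:**
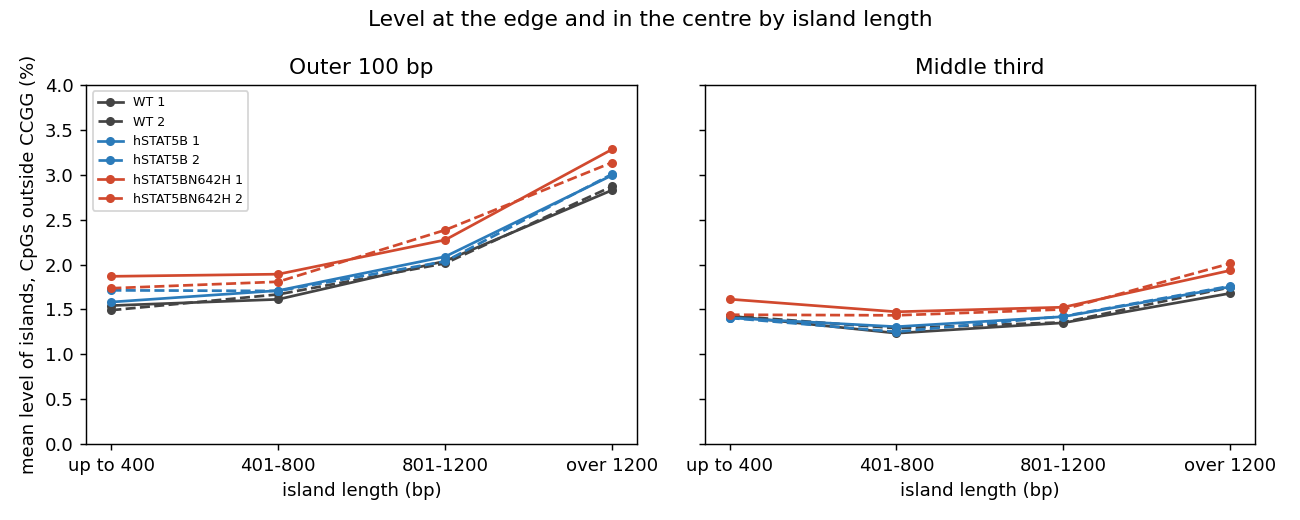
Mean level of CpGs outside CCGG at the edge (outer 100 bp, left) and in the centre (right) by CGI length, with 1 line per library (solid, replicate 1; dashed, replicate 2). At the edge the level goes from 1.49% to 1.87% in the shortest class to 2.83% to 3.28% in the longest, and in the centre from 1.41% to 1.61% to 1.68% to 2.01%.

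Named CGIs show both patterns. The CGI shared by the divergent genes Capza1, which encodes a subunit of the actin capping protein, and St7l had 49.5% at the edge and 2.57% in the centre. Epop, whose product binds Polycomb repressive complex 2, had 44.7% and 2.26%. Cdk5r1, which encodes the activator of the kinase CDK5, had 41.4% and 1.77%. High values at 6 to 9 edge CpGs thus stood beside centres at the level common to the group. The growth factor receptor gene Fgfr3 had 26.8% and 1.42%, and the zinc finger gene Insm2 had 28.8% and 4.13%. In the opposite direction, Ak4, a mitochondrial adenylate kinase gene, had 3.13% at the edge and 29.0% in the centre. The CGI between Nkiras1, which encodes a regulator of NF-κB, and the ribosomal protein gene Rpl15 had 1.54% and 17.4%. The CGI shared by Ap3s1 and the autophagy gene Atg12 had 2.49% and 19.8%. Rnls, an oxidoreductase gene, had 1.43% and 15.8%, and Psat1, a gene of serine synthesis, had 2.14% and 15.6%. These CGIs were chosen for this difference among those with at least 5 CpGs at the edge and 5 in the centre. The longest CGI, 5274 bp at the corepressor gene Skor1, had 6.88% and 7.70% in WT, 5.11% and 6.68% in hSTAT5B, and 4.73% and 5.75% in hSTAT5BN642H. It was followed by the homeobox genes Irx5 (5129 bp, pooled level 5.14%) and Nkx1-1 (5113 bp, 5.99%). All 3 were well above the median of the selected CGIs.

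CGIs with starts on both strands, of which there were 829, had 1.92% to 2.02%, compared with 2.38% to 2.65% in the 8248 CGIs with starts on 1 strand. CGIs with the start just outside had 2.93% to 3.49% in 505 CGIs, whereas CGIs that contain the start had 2.31% to 2.53% in 8572. Of 4 short sequences searched on both strands, GGGGCGGGG, a GC box, was found in 40.4% of the selected CGIs and in 29.9% of all 15607 autosomal CGIs. CCGGAAG, the core bound by ETS factors, was found in 28.5% and 21.6%, CACGTG, the E box, in 19.5% and 17.4%, and CGCATGCG, which NRF1 binds, in 5.39% and 4.17%. The CpGs inside had 1.41% to 1.76%, 5.33% to 5.98%, 0.689% to 1.09%, and 0.742% to 1.12%, respectively. CCGGAAG contains the MspI site. A match is not a bound site, and length was not matched between these sets.

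For the comparison of genotypes, each CpG of a CGI was given the same weight. The order of CGIs by level was shared in part, with Spearman's rho across CGIs of 0.390 between the WT libraries, 0.389 between the hSTAT5B libraries, and 0.501 between the hSTAT5BN642H libraries. Between libraries of different genotypes it was 0.380 to 0.464. Median depth was 14 and 20 reads in WT, 17 and 15 in hSTAT5B, and 28 and 19 in hSTAT5BN642H. The part of depth in these correlations was not tested. The mean over the 9077 CGIs was 2.35% and 2.38% in WT, 2.41% and 2.44% in hSTAT5B, and 2.58% and 2.57% in hSTAT5BN642H. The libraries did not overlap between any 2 genotypes, and those of hSTAT5BN642H were the highest. The differences were 0.214 percentage points between hSTAT5BN642H and WT, 0.157 between hSTAT5BN642H and hSTAT5B, and 0.0562 between hSTAT5B and WT. The median over CGIs differed by less, with 0.0921, 0.0525, and 0.0396 percentage points. In exact permutation tests over libraries, 2-sided, p was 0.33 for each, which is the smallest that 2 against 2 libraries can give, so that this design cannot reach 0.05. The difference between hSTAT5BN642H and WT was 0.185 without CCGG and 0.228 at the 2234 CpGs that reached 50 reads in every library. WT replicate 2 and hSTAT5BN642H replicate 2 had like depths of 20 and 19 reads and mean levels of 2.38% and 2.57%. This sets 1 library against 1, and the part of depth was not tested. Conversion of non-CpG cytosines was not analysed here, and the part of conversion in differences of this size was not tested either. The difference between hSTAT5BN642H and WT was above 0 on each of the 19 autosomes, from 0.103 to 0.348. Chromosomes of the same libraries are not replicates. CGIs away from a gene start and under 10%, of which there were 1728, had 3.37% to 3.51% in WT and 3.91% to 3.96% in hSTAT5BN642H.

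In percentage points, the difference between hSTAT5BN642H and WT was larger for CpGs with a higher pooled level, up to 50%. CpGs with a pooled level of 1% to 2% differed by 0.0798 percentage points between hSTAT5BN642H and WT, those of 2% to 5% by 0.262, those of 5% to 10% by 0.583, those of 10% to 20% by 1.49, and those of 20% to 50% by 2.20. The libraries of both genotypes overlapped for CpGs at 50% or more, with a difference of 0.320, and for those above 0% and under 1%, with -0.00172. These classes were cut by the reads of the same 6 libraries, with medians of 14 and 20 reads per CpG in WT and 28 and 19 in hSTAT5BN642H. They are thus not independent of the values compared, and the trend over them was not tested. In CGIs with starts on both strands the WT libraries had 2.01% and 1.94% and the hSTAT5BN642H libraries 1.95% and 2.02%, which overlap, whereas in CGIs with starts on 1 strand they had 2.38% and 2.43% against 2.65% and 2.63%. The gap between the 2 kinds of CGI was 0.373 and 0.484 percentage points in WT and 0.700 and 0.610 in hSTAT5BN642H (difference 0.226, exact permutation test over libraries, 2-sided, p = 0.33). Edge minus centre was 0.535 and 0.596 in WT, 0.586 and 0.583 in hSTAT5B, and 0.689 and 0.651 in hSTAT5BN642H. The difference between hSTAT5BN642H and WT in this value was 0.104 percentage points (p = 0.33) and that between hSTAT5BN642H and hSTAT5B was 0.0851 (p = 0.33), whereas hSTAT5B and WT overlapped (0.0192, p = 1, exact permutation tests over libraries, 2-sided). Without CCGG these differences were 0.0879, 0.0338, and 0.0542, none of the 3 pairs of genotypes overlapped, and p was 0.33 for each (exact permutation test).

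No single CGI passed a test. In a limma model fitted to log2 ratios of methylated over unmethylated reads, 0 of the 9077 CGIs and 0 of the 13637 CGIs tested (0%) had an adjusted p under 0.05 in any of the 3 comparisons. The median log2 change over the selected CGIs was 0.05 for hSTAT5BN642H against WT, with 4853 of 9077 above 0, and 0.05 for hSTAT5B against WT, with 4821. For hSTAT5BN642H against hSTAT5B it was -0.00251, with 4522 above 0. The log2 ratio adds 1 read to both counts and takes the CpGs with at least 5 reads in each library itself. Median depth was 28 and 19 reads in hSTAT5BN642H and 17 and 15 in hSTAT5B. The part of depth in these small medians was not tested, so that they cannot be set directly against the difference in mean level. An unadjusted p under 0.05 was found for 419 of the selected CGIs between hSTAT5BN642H and WT, for 525 between hSTAT5B and WT, and for 451 between hSTAT5BN642H and hSTAT5B. These were 4.62%, 5.78%, and 4.97% of the selected CGIs, below the 5.65%, 6.57%, and 5.98% of all 13637 tested. Without a test, both hSTAT5BN642H libraries were above both WT libraries in 1893 CGIs (20.9%, compared with 21.7% of all 12535 CGIs with enough CpGs) and below them in 1252 (13.8%, compared with 14.4%). For hSTAT5B against WT these counts were 1562 above (17.2%, compared with 17.9%) and 1408 below (15.5%, compared with 15.2%). For hSTAT5BN642H against hSTAT5B they were 1826 above (20.1%, compared with 20.1%) and 1278 below (14.1%, compared with 15.2%). These shares were close to those of all CGIs.

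Means at least 5 percentage points apart were less frequent here than among all CGIs. Between hSTAT5BN642H and WT there were 112 such CGIs (1.23%, compared with 4.8% of all CGIs), 89 of them higher and 23 lower in hSTAT5BN642H. Between hSTAT5B and WT there were 87 (0.958%, compared with 4.16%), with 49 higher and 38 lower in hSTAT5B. Between hSTAT5BN642H and hSTAT5B there were 97 (1.07%, compared with 4.91%), with 73 higher and 24 lower in hSTAT5BN642H. Many of these CGIs had few measured CpGs (61 of the 112, 48 of the 87, and 55 of the 97). The median range over the 6 libraries was 4.07 percentage points in CGIs with 5 to 9 CpGs, which were 14.8% of the selected CGIs. It was 1.62 in CGIs with 40 and over. A limit of 10% on the pooled level leaves little room for lower values, and the share was not tested. The 2 libraries of 1 genotype were as far apart in 2.90% of CGIs in WT, 2.84% in hSTAT5B, and 2.03% in hSTAT5BN642H. Single libraries vary more than means of 2, so that these shares cannot be set against those of the genotype means. The means of hSTAT5BN642H and WT were within 1 percentage point in 66.2% of CGIs.

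**Figure D4:**
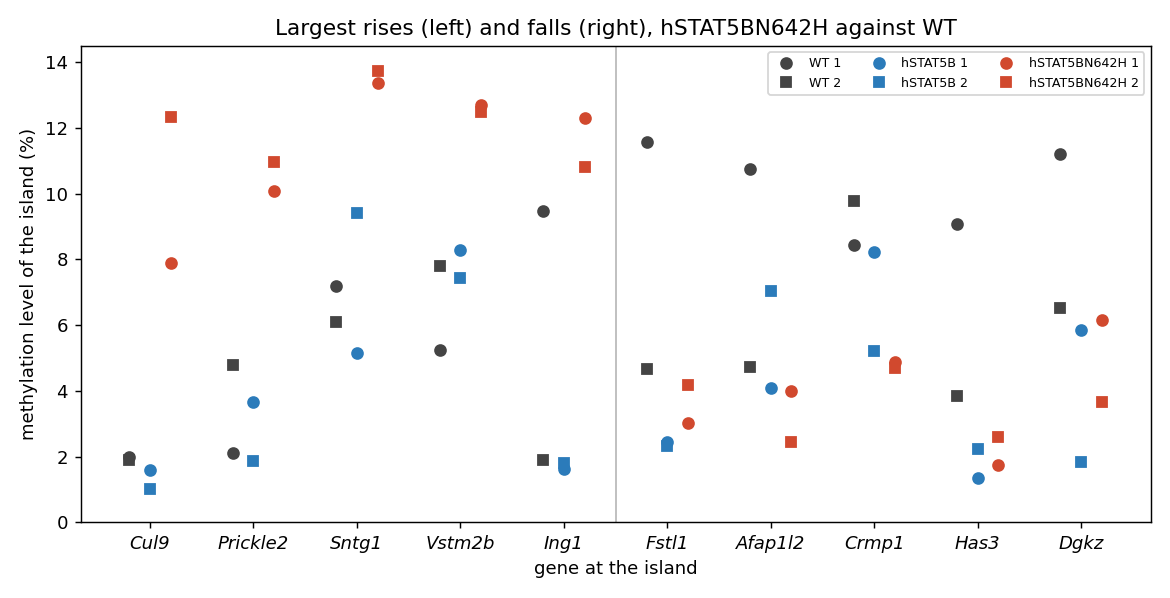
Methylation level of the CGI in each library (circles, replicate 1; squares, replicate 2) for the 5 CGIs with the largest difference in either direction between hSTAT5BN642H and WT, among those with at least 20 CpGs and no overlap between these genotypes. Cul9 lies at 7.89% and 12.3% in hSTAT5BN642H and at 1.98% or less in the other libraries, whereas Fstl1 lies at 11.6% in WT replicate 1 and at 4.67% or less elsewhere.

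The CGIs with the largest differences, chosen for them among CGIs with at least 20 CpGs and genotypes that do not overlap, are given as a description. Cul9, which encodes a cullin of ubiquitin ligases, has its CGI at chr17:46545979-46546435 (GRCm38), with 23 CpGs. It had 1.98% and 1.89% in WT, 1.59% and 1.02% in hSTAT5B, and 7.89% and 12.3% in hSTAT5BN642H. Prickle2, a gene of planar cell polarity, had 2.10% and 4.80%, 3.67% and 1.85%, and 10.1% and 10.98%, respectively. In both, the hSTAT5BN642H libraries stood apart from the other 4, and the adjusted p against WT in limma was 0.856. Sntg1, a syntrophin gene, had 7.20% and 6.10% in WT and 13.4% and 13.8% in hSTAT5BN642H, and Vstm2b, which encodes an immunoglobulin domain protein, had 5.24% and 7.79% against 12.7% and 12.5%. Ing1, which encodes a reader of histone H3 lysine methylation at active promoters, has a CGI of 3501 bp at chr8:11555150-11558650. It had 9.47% and 1.89% in WT, 1.62% and 1.82% in hSTAT5B, and 12.3% and 10.8% in hSTAT5BN642H over 108 CpGs. WT replicate 1 was thus nearer to the hSTAT5BN642H libraries than to the other WT library. Its edge had 2.55% and its centre 9.06%. A like split within WT was seen at Osbpl8, an oxysterol-binding protein gene, with 8.75% and 1.01% in WT, 1.58% and 0.944% in hSTAT5B, and 7.22% and 10.9% in hSTAT5BN642H. Pnma1 had 3.76% and 15.2%, 3.05% and 1.79%, and 12.3% and 10.4%, respectively.

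In the other direction, 4 of the 5 CGIs with the largest lower values in hSTAT5BN642H against WT were highest in WT replicate 1, above the other 5 libraries. Fstl1, which encodes a secreted follistatin-like protein, had 11.6% and 4.67% in WT and 3.01% and 4.18% in hSTAT5BN642H. Afap1l2 had 10.8% and 4.72% against 4.01% and 2.45%, the hyaluronan synthase gene Has3 9.09% and 3.84% against 1.74% and 2.60%, and 1 of the 2 selected CGIs of Dgkz, which encodes a kinase of diacylglycerol in T cell signaling, 11.2% and 6.54% against 6.16% and 3.67%. The fifth, 1 of 2 selected CGIs of Crmp1, a gene of axon guidance, had closer WT values, with 8.44% and 9.78% against 4.87% and 4.70%. Against hSTAT5B, lower values were found at Rab11b, which encodes a GTPase of recycling endosomes, with 12.9% and 6.43% in hSTAT5B and 4.73% and 3.30% in hSTAT5BN642H. Pde8a, a phosphodiesterase of cyclic AMP, had 10.01% and 10.2% in hSTAT5B, 5% and 4.58% in hSTAT5BN642H, and 2.12% and 5.76% in WT. Tsnax (4.27% and 7.46% against 1.70% and 1.52%), Prmt8 (12.4% and 11.4% against 6.99% and 7.12%), and Plxna4 (6.60% and 4.96% against 1.54% and 2.34%) followed. At these 5 CGIs both WT libraries were also below both hSTAT5B libraries.

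Gene lists show where the selected CGIs lie. Of 21 genes of chromatin and DNA methylation machinery, 20 had a selected CGI, and the median level over their 24 CGIs was 2.05%, compared with 1.92% for all selected CGIs. Dnmt1, the maintenance methyltransferase gene, had 0.746% to 3.55% over the libraries, and Dnmt3a, with 129 CpGs, had 1.43% to 2.45%. Kdm2a, a CXXC-domain demethylase gene, had 13.7% at the edge and 3.35% in the centre. Of 32 genes of cell cycle and DNA replication, 26 had one, with a median of 1.65%, and for CDK inhibitors and tumour suppressors it was 16 of 20 genes with a median of 1.69%. Cdkn2a, which encodes inhibitors of cell cycle entry, had 1.66% to 3.15% over 81 CpGs. In 18 of 25 ubiquitously used genes the median was 1.85%.

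Of 28 genes of the JAK-STAT pathway and STAT5 targets, 16 had a selected CGI, with a median level of 1.46%. Stat5b had 3.23% and 1.24% in WT, 1.39% and 0.860% in hSTAT5B, and 0.862% and 0.637% in hSTAT5BN642H. Reads were aligned to the mouse genome, and whether any came from the human transgene was not tested. Jak2 had 0.970% to 2.01% over 60 CpGs, Bcl2, an inhibitor of apoptosis, 0.936% to 2.59%, Pim1, a survival kinase gene, 1.00% to 1.81%, and Myc 0.985% to 2.78%. Socs2, a feedback inhibitor of cytokine receptors, was the exception, with 6.75% to 7.74%. The list held 8 genes with no CGI at a start, such as the cytokine receptor genes Il2ra and Il7r. Of the 16 CGIs, hSTAT5BN642H was above WT without overlap in 2 and below in 4 (21.7% and 14.4% of all CGIs), and limma called 0. Their mean level was 2.01% and 1.91% in WT, 1.99% and 1.84% in hSTAT5B, and 1.76% and 1.61% in hSTAT5BN642H. hSTAT5BN642H minus WT was thus -0.271 percentage points for the list (-0.210 without CCGG) and 0.214 for all selected CGIs, and the libraries of these genotypes did not overlap in either. The ubiquitously used genes also had a mean difference below 0 (-0.233, or -0.0855 without CCGG), with overlapping libraries. With all CpGs, the other lists had mean differences above 0 (0.00752 to 0.543). As the median over CGIs, the difference was -0.267 for the JAK-STAT list and -0.268 for ubiquitously used genes. This median was also below 0 for the chromatin, cell cycle, and T cell lists, and above 0 for the remaining lists (0.286 to 0.594). Of 35 genes of T cell identity and signalling, only 17 had a selected CGI, and another 17, among them Cd3e, Cd8a, Lck, and Zap70, had no CGI at a start. Those with one were mostly transcription factors, and their median was 1.81%. Tcf7, of naive and memory T cells, had 0.413% to 3.39%. Eomes, a T-box factor, had 12.8% at the edge and 1.14% in the centre. Tbx21, which encodes T-bet, was the highest with 8.61% to 16.8%, measured at 6 CpGs.

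Developmental regulators of other tissues had higher levels. Of 40 genes, 28 had a selected CGI, 6 had only a CGI at 10% or more, 1 had too few CpGs, and 5 had no CGI at a start. The 31 CGIs had a median of 4.55%, with a range of 2.10% to 8.14%, so that the lowest of them lay above the median of all selected CGIs. Without CCGG the median was 3.66%, compared with 0.937%. Their mean level per library was 4.88% and 4.85% in WT, 4.56% and 4.22% in hSTAT5B, and 5.52% and 5.21% in hSTAT5BN642H. The hSTAT5BN642H libraries were the highest and the hSTAT5B libraries the lowest. Without CCGG, WT (3.81% and 3.97%) and hSTAT5B (3.90% and 3.44%) overlapped, and hSTAT5BN642H had 4.59% and 4.47%. In 11 of the 31 CGIs both hSTAT5BN642H libraries were above both hSTAT5B libraries and in 2 they were below (20.1% and 15.2% of all CGIs), and against WT it was 7 and 1 (21.7% and 14.4% of all CGIs). Emx2, a homeobox gene of the forebrain, had 2.62% and 5.13% in WT, 2.89% and 2.62% in hSTAT5B, and 7.49% and 6.64% in hSTAT5BN642H. Pax3, of neural crest and muscle, had 7.16% and 4.12%, 7.44% and 4.21%, and 9.58% and 8.67%. Foxa2, of endoderm, had 24.6% at the edge and 6.45% in the centre, without separation of the genotypes. Germline genes were mostly outside the selection. Of 25, 2 had a selected CGI, Tdrd6 and Stag3, and 11 had a CGI at 10% or more, such as Ddx4, an RNA helicase gene of germ cells, with 96.1% to 98.3%.

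**Figure D5:**
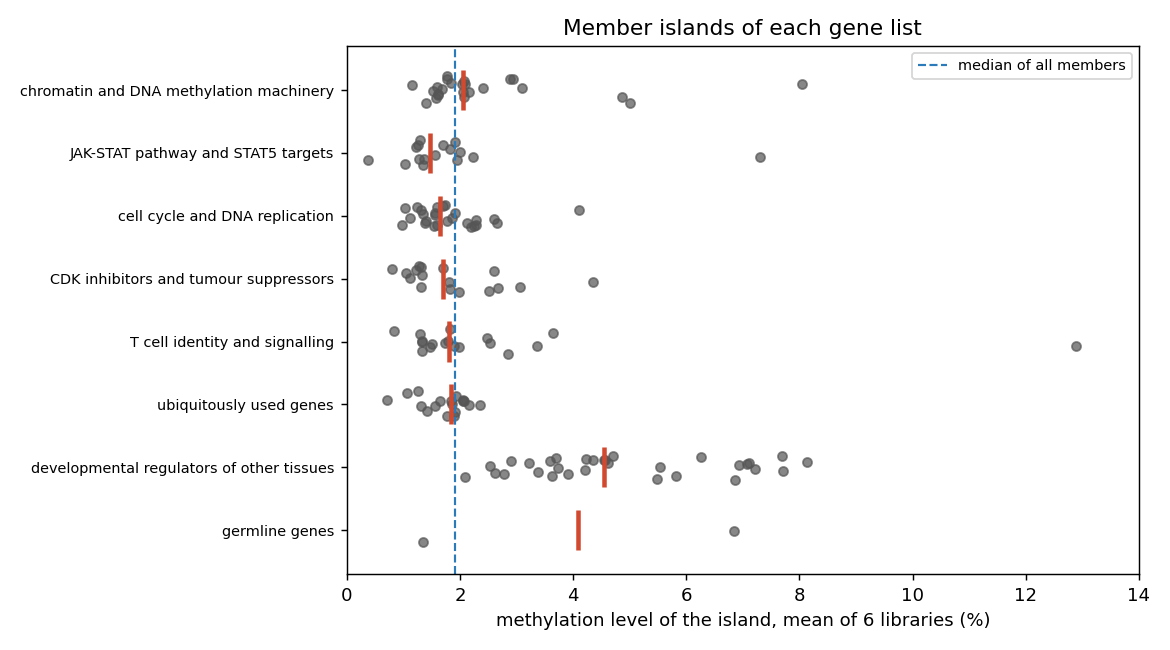
Methylation level of each selected CGI of 8 gene lists as the mean of 6 libraries (points, spread vertically for clarity), with the median of each list (red bars) and of all selected CGIs (dashed line, 1.92%). The developmental regulators have a median of 4.55%, and the other lists with more than 2 CGIs have medians between 1.46% and 2.05%.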

How the data were processed

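RRBS libraries of CD8+ T cells from 2 mice per genotype were analysed. The authors digested DNA with MspI, filled in and A-tailed the fragments, trimmed reads with Trimmomatic, aligned them to GRCm38 (mm10) with BSMAP in RRBS mode, and counted with in-house Python scripts. The deposited files give the count of methylated and of all reads per CpG, not normalized and with both strands combined. The authors also deposited a score, the methylated share on a scale up to 1000, which served here only as a check of the counts. Versions of these tools are not given in the sources used here, and reads at non-CpG cytosines were not analysed here.

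CGIs were called by the UCSC rule on GRCm38 (17 per CpG, -1 per other base, length over 200 bp, GC over 50%, observed/expected over 0.6). Starts and genes were from GENCODE M21, and exons also from RefSeq. A CGI's level was the mean over its CpGs of at least 5 reads per file, each CpG with the same weight. Genotypes were compared by exact permutation tests over libraries and by limma on log2((methylated reads + 1)/(unmethylated reads + 1)) for CGIs with at least 3 CpGs, in 1 model of the 6 libraries, with p-values adjusted by Benjamini-Hochberg at 0.05. Code was tested on simulated data. The CGIs, gene lists, and tests were chosen with earlier results of these data known. Values without CCGG were added after seeing the data. Named genes were those of the lists, the 5 CGIs on either side of 10%, the 5 with the largest differences in either direction against WT and hSTAT5B and between edge and centre, the longest and shortest 3, and the 3 with most CpGs among those with 0 methylated reads. Limma calls would also have been named, but there were 0. Of the shortest, Ndufa8, Nudt12, and Dnajc15 were 201 bp long, with pooled levels of 2.03%, 3.15%, and 1.67%. Alternatives were other read minimums, pooled reads, other level limits, other edge widths, and leaving out each library. Precision is limited by 2 libraries per genotype and 14 to 28 reads per CpG. Limma 3.58.1 was run in R 4.3.3. Other steps were run in Python 3.11.15 with pandas 2.3.3, numpy 2.4.6, and scipy 1.17.1, and figures were drawn with matplotlib 3.10.9.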

Additional observations from a re-analysis of the deposited data

How the results depend on the processing

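The differences in mean level kept their sign under all alternatives run, but not their size. In CGIs with a pooled level under 5% they were 0.114 (hSTAT5BN642H and WT), 0.0793 (hSTAT5BN642H and hSTAT5B), and 0.0347 (hSTAT5B and WT), and with at least 1 read per CpG the last was 0.0318 with overlapping libraries (exact permutation p = 0.67). Leaving out each library in turn gave 0.198 to 0.229 percentage points between hSTAT5BN642H and WT, 0.142 to 0.173 between hSTAT5BN642H and hSTAT5B, and 0.0407 to 0.0716 between hSTAT5B and WT. For edge minus centre the ranges were 0.0737 to 0.135, 0.0661 to 0.104, and -0.0115 to 0.0499, and the last comparison, 0.0192 with all libraries, changed sign to -0.0115 without WT replicate 1. Counts of CGIs at least 5 percentage points apart were 112 to 196, 97 to 190, and 87 to 192 when 1 library was left out (196 and 192 without WT replicate 2 against hSTAT5BN642H and hSTAT5B, 179 and 190 without hSTAT5B replicate 1 against WT and hSTAT5BN642H, 154 and 167 without hSTAT5B replicate 2, and 189 and 175 without hSTAT5BN642H replicate 1 against WT and hSTAT5B). With at least 10 reads per CpG they were 243, 232, and 212 among the 8693 CGIs left, and the cause was not tested. The limma calls were 0 in each of these settings.

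Deviations of equally numbered libraries from their genotype means correlated at -0.00826, -0.0201, and -0.0116. Such deviations also hold counting error, so that these values cannot exclude a pairing of libraries by replicate number. With the replicate block the differences in mean level were the same, 0.214, 0.157, and 0.0562, with a sign-flip p of 0.5, the smallest that 2 pairs can give in this exact test, and limma called 0 CGIs (764, 792, and 865 of 13637 at an unadjusted p under 0.05). Without CCGG, Has3 differed by -1.36 (-4.30 with all CpGs, hSTAT5BN642H minus WT) and Plxna4 by -2.16 (-3.84, hSTAT5BN642H minus hSTAT5B), and with pooled reads Pde8a differed by -2.11 (-5.29 as the mean over CpGs), Prmt8 by -2.88 (-4.85), Plxna4 by -2.40, and Osbpl8 by 12.3 (7.78), all hSTAT5BN642H minus hSTAT5B, and Fstl1 by -2.49 (-4.52) and Dgkz by -2.14 (-3.96), hSTAT5BN642H minus WT. Conversion of non-CpG cytosines was not analysed here, so that a level of 1% to 2% cannot be told apart from incomplete conversion. Leaving out CpGs with 1000 or more reads removed none of the selected CpGs.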

Other observations

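Runx1, which encodes a transcription factor of blood cell development, has 2 CGIs at its starts, and only 1 was selected. The selected CGI of 2073 bp had 1.16% to 4.07% over the libraries. The other, of 259 bp with 12 CpGs, was methylated and had 77.2% and 91.6% in WT, 83.5% and 75.2% in hSTAT5B, and 46.0% and 44.3% in hSTAT5BN642H. It was noticed after the values were seen and is given with no test.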
